A study of Mus musculus with 6 samples.

Results

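The Ikaros family consists of 5 zinc finger transcription factors in mice, Ikaros (Ikzf1), Helios (Ikzf2), Aiolos (Ikzf3), Eos (Ikzf4) and Pegasus (Ikzf5). Its members were taken by symbol, and the 5 rows were found among the 37991 genes of the deposited count table. RNA was sequenced from regulatory T cells (Treg), which carry the factor Foxp3 and hold immune responses in check. CD4 cells were isolated from spleen and the YFP+ fraction was sorted by flow cytometry. The study has 3 libraries labelled wild type and KAP1 sufficient and 3 labelled KAP1 deficient. The strain is written as C57BL/6 in 4 libraries, as C57BL/7 in the library labelled deficient replicate 2 and as C57BL/8 in that labelled deficient replicate 3. All 6 libraries share the YFP+ sort. The sources used here do not say how KAP1 was removed, which promoter drives YFP, how old the mice were or whether libraries came from separate animals. The p-values below therefore measure only the spread between these libraries, which may be technical.

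Ikaros proteins bind DNA through zinc fingers near the amino end and pair with each other through zinc fingers at the carboxyl end. They recruit the NuRD, Sin3 and CtBP co-repressor complexes and can also activate genes. Ikaros is found in most lymphoid cells, Aiolos in B cells and in some T cells, and Helios and Eos are among the transcription factors characteristic of Treg, where Helios is used as a marker of thymus-derived Treg and Eos is a Foxp3 partner. Pegasus is the most divergent member and is expressed in many tissues. KAP1, the product of Trim28, silences genes at sites where zinc finger proteins with a KRAB domain recruit it.

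The members are related in sequence, so the stretches they share bear on whether reads of 1 member could be counted for another. The longest identical run in the coding sequences of Ikzf1 and the member closest to it by this measure, Ikzf3, spanned 26 bases, and that between Ikzf1 and Ikzf2 spanned 17 bases. Both are shown from the coding strand of GENCODE M21 transcripts (mm10), with the identical bases in capitals and 10 bases on either side, at positions 1500 to 1545 of the Ikzf1 and 1416 to 1461 of the Ikzf3 coding sequence, and at positions 558 to 594 of Ikzf1 and 501 to 537 of Ikzf2.
Ikzf1 beside Ikzf3: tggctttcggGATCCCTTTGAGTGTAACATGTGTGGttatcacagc
Ikzf3 beside Ikzf1: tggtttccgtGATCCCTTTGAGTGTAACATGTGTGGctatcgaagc
Ikzf1 beside Ikzf2: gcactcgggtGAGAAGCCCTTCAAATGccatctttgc
Ikzf2 beside Ikzf1: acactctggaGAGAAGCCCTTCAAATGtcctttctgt
Over all transcripts, UTRs included, Ikzf2 and Ikzf4 had 3 stretches of 31 bases in common, and no other pair of members had any. Sequence shared between members was thus short in this annotation. The overlap that matters is with another gene: of the 5721 exon bases of Ikzf5, 4835 (84.5%) also lie in exons of other genes, 4652 of them in Pstk on the opposite strand.

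Trim28 (ENSMUSG00000005566, mm10, chromosome 7, 12999114 to 13031035) was read first because it checks the labels. It held 2462, 2483 and 218 counts in the libraries labelled sufficient replicates 1, 2 and 3, and 232, 185 and 2544 in those labelled deficient replicates 1, 2 and 3. Trim28 therefore went against the label in the libraries labelled sufficient replicate 3 and deficient replicate 3. Both ways of dividing the libraries are given for this reason. The first follows the labels, and the second puts the libraries with high Trim28 (sufficient 1 and 2, deficient 3) against those with low Trim28 (sufficient 3, deficient 1 and 2). The second is a split by a measured transcript and not by a stated genotype, and no test of Trim28 itself is given for it. Values are also given for the 4 libraries whose Trim28 level and label go together. Each library held between 9954344 and 10994745 counts, and 3 counts, the limit that a count of 0 allows, are worth 0.273 to 0.301 CPM, the count scaled to a library total of 1000000. T cell identity genes summed to 3752 to 4164 CPM over the 6 libraries, and Foxp3, the defining Treg factor, stood at 596 to 747 CPM.

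All 5 members were expressed in every library, and their order depends on the length used. As CPM per kilobase of all annotated exon bases (RPKM), Ikzf1 was highest at 105 ± 4.25 (SD, n = 6 libraries) and Ikzf2 followed at 82.8 ± 8.64. Ikzf4 stood at 54.4 ± 3.49, Ikzf3 at 45.4 ± 1.94 and Ikzf5 at 6.17 ± 1.11 RPKM. The ranges of neighbours in this order did not overlap: Ikzf1 ran from 101 to 111, Ikzf2 from 74.5 to 97.7, Ikzf4 from 49.2 to 59.2 and Ikzf3 from 43.8 to 48.9 RPKM. With the length of the longest protein-coding transcript in place of all exons, Ikzf1 (113 to 124 RPKM), Ikzf3 (105 to 117 RPKM) and Ikzf2 (93.2 to 122 RPKM) overlapped, while Ikzf4 averaged 63.3 and Ikzf5 7.96 RPKM. The order of Ikaros, Helios and Aiolos is thus set by the gene model. Ikzf5 was lowest on average by each length used, but its distance from the rest depends on its shared exons: all its counts over its 886 unshared exon bases would give 39.8 ± 7.19 RPKM.

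**Figure D1:**
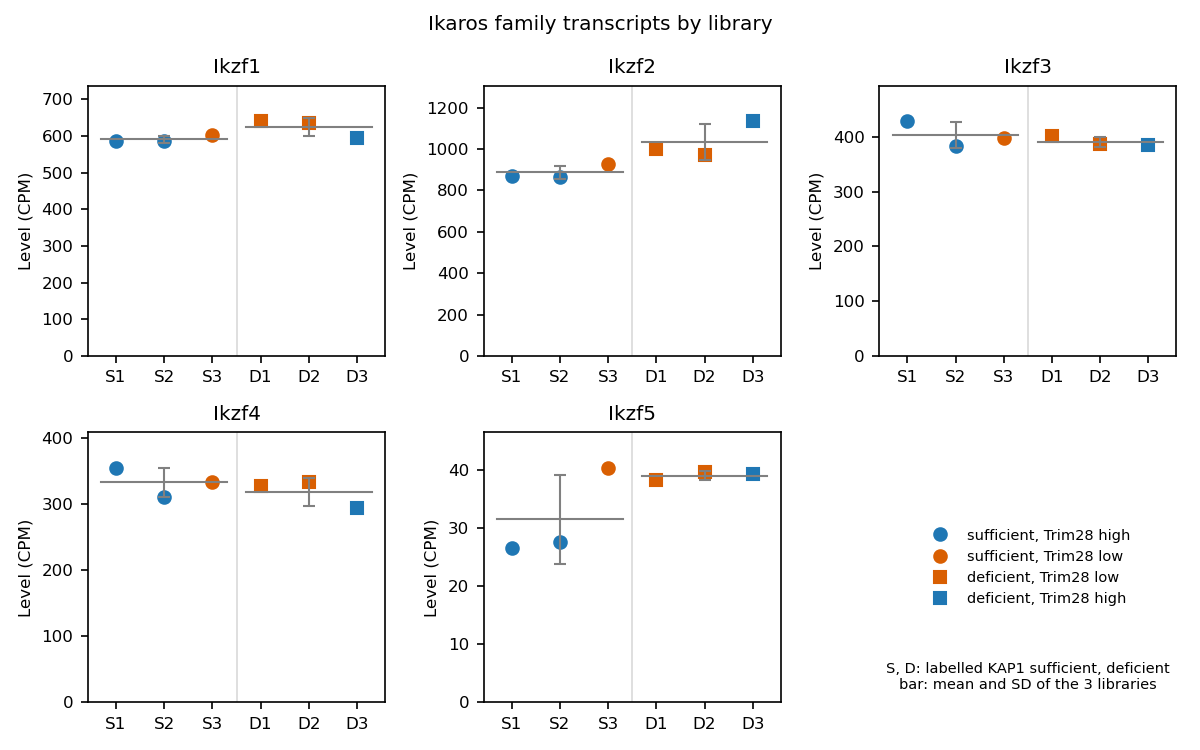
Level of each Ikaros family transcript in CPM (linear axis from 0) in the 6 libraries. S1 to S3 are labelled KAP1 sufficient and D1 to D3 KAP1 deficient. Blue marks high and orange low Trim28. Grey lines are the mean and SD of the 3 libraries of each label. Ikzf2 is highest in D3 at 1135 CPM, and Ikzf5 is low in S1 and S2 only, at 26.6 and 27.6 CPM.

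Helios is encoded by Ikzf2 (ENSMUSG00000025997, chromosome 1, 69531214 to 69687245, minus strand). Ikzf2 stood at 871, 865 and 925 CPM in the libraries labelled sufficient 1, 2 and 3 and at 1000, 971 and 1135 CPM in those labelled deficient 1, 2 and 3. All 3 libraries labelled deficient were above all 3 labelled sufficient, and the library labelled deficient 3, in which Trim28 was high, was the highest of all. By label the means were 887 ± 33.4 and 1035 ± 87.2 CPM (n = 3 each, SD), and the log2 fold change was 0.22 ± 0.07 (SE, 95% interval 0.07 to 0.37). This did not pass the test over all genes (edgeR adjusted p = 0.632, unadjusted p = 0.00836, 116th of 12158 genes).

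By Trim28 level the Ikzf2 groups overlapped. The high group averaged 957 ± 154 and the low group 966 ± 37.7 CPM, a log2 fold change of 0.02 ± 0.09 (95% interval -0.18 to 0.23, edgeR adjusted p = 0.914). The SD of the high group comes from deficient 3, which stood above the other libraries of that group. Among the 4 libraries in which Trim28 and label go together, Ikzf2 was higher in the deficient pair by 0.19 ± 0.05 on the log2 scale (95% interval 0.08 to 0.30, edgeR adjusted p = 0.0167). Helios transcript was therefore 1.14-fold higher in the low-Trim28 libraries of this subset, and the split by Trim28 level differed with deficient 3 in and out: without it the log2 fold change by level was 0.16 (adjusted p = 0.0175).

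Ikaros itself is encoded by Ikzf1 (ENSMUSG00000018654, chromosome 11, 11685003 to 11772926, plus strand). Ikzf1 stood at 586, 585 and 603 CPM in the libraries labelled sufficient 1, 2 and 3 and at 640, 636 and 596 CPM in those labelled deficient 1, 2 and 3. The labelled groups overlapped, because deficient 3 lay below sufficient 3. By Trim28 level they did not: the 3 high libraries (589 ± 5.65 CPM) all lay below the 3 low ones (626 ± 20.8 CPM). The difference was small, a log2 fold change of 0.10 ± 0.05 (95% interval -0.01 to 0.21, edgeR adjusted p = 0.281) by level and 0.08 ± 0.06 (95% interval -0.05 to 0.20, adjusted p = 0.717) by label. In the 4 libraries it was 0.13 ± 0.05 (adjusted p = 0.0860), which did not pass either.

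Counts of members whose groups do not overlap are to be read against all genes. By label only Ikzf2 of the 5 members had groups that did not overlap, against 12.8% of the 12158 genes tested. By Trim28 level only Ikzf1 of the 5 had such groups, against 26.4% of genes. A share of 1 in 5 is near the background for either split.

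Aiolos (Ikzf3, ENSMUSG00000018168, chromosome 11, 98464902 to 98546031, minus strand) was among the steadiest members. Ikzf3 stood at 428, 383 and 398 CPM in sufficient 1, 2 and 3 and at 402, 386 and 385 CPM in deficient 1, 2 and 3. The highest and the lowest value were both in libraries labelled sufficient, and the groups overlapped under either split. The log2 fold change was -0.05 ± 0.06 by label (edgeR adjusted p = 0.849, 95% interval -0.18 to 0.09) and -0.00 ± 0.06 by Trim28 level (adjusted p = 0.977, 95% interval -0.13 to 0.12). Aiolos is also a B cell factor, and among B cell markers Ms4a1 and Pax5 were at 0 to 0.0971 CPM, while Cd79b stood at 7.77 to 11.9 and Cd22 at 3.92 to 12.6 CPM. The 9 B cell markers summed to 606 to 697 CPM in the high-Trim28 and 544 to 581 CPM in the low-Trim28 libraries, nearly all of it Ighm, which encodes the IgM heavy chain.

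Eos (Ikzf4, ENSMUSG00000002578, chromosome 10, 128630843 to 128645991, minus strand) stood at 355, 310 and 334 CPM in sufficient 1, 2 and 3 and at 328, 334 and 295 CPM in deficient 1, 2 and 3. The 3 libraries with low Trim28 lay close together (332 ± 3.61 CPM), between the values of the high-Trim28 libraries (320 ± 31.3 CPM). Ikzf4 had a log2 fold change of -0.07 ± 0.07 by label (95% interval -0.23 to 0.10, edgeR adjusted p = 0.819) and of 0.06 ± 0.07 by level (95% interval -0.08 to 0.21, adjusted p = 0.646). The 2 Treg-associated members thus had opposite extremes in the same library: deficient 3 held the highest Helios and the lowest Eos value of the 6.

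Pegasus (Ikzf5, ENSMUSG00000040167, chromosome 7, 131388652 to 131410521, minus strand) varied most. Ikzf5 held 269, 281 and 416 counts (26.6, 27.6 and 40.4 CPM) in sufficient 1, 2 and 3 and 385, 394 and 432 counts (38.2, 39.6 and 39.3 CPM) in deficient 1, 2 and 3. Sufficient 1 and 2 were low and the other 4 libraries lay together, deficient 3 with its high Trim28 among them. The coefficient of variation over the 6 libraries was 18.1%, against 4.81 to 6.10% from counting alone. For Ikzf1 to Ikzf4 it was 4.04 to 10.4%, against 0.895 to 1.78% from counting.

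Ikzf5 averaged 31.5 ± 7.68 and 39.0 ± 0.733 CPM by label, and 31.2 ± 7.05 and 39.4 ± 1.11 CPM by Trim28 level (SD, n = 3 each). The log2 fold change was 0.30 ± 0.15 by label (95% interval -0.04 to 0.65, edgeR adjusted p = 0.654). By level it was 0.34 ± 0.12 (95% interval 0.07 to 0.61, unadjusted p = 0.0166, adjusted p = 0.118). Neither passed. In the 4 libraries where label and Trim28 go together, Ikzf5 was higher in the deficient pair by 0.53 ± 0.09 (95% interval 0.34 to 0.71, adjusted p = 0.000747), a 1.44-fold difference. The 6-library result rests on the doubted libraries: without sufficient 3 the log2 fold change by label was 0.52 (adjusted p = 0.00345), and without deficient 3 that by level was 0.54 (adjusted p = 4.92e-05).

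The count of Ikzf5 cannot be told apart from that of Pstk by strand. Pstk encodes a kinase of the selenocysteine pathway, and the library kit does not mark strand while the sources used here do not give the strand setting of the counting. Pstk, named as a neighbour after its values were seen, stood at 17.3, 20.4 and 19.5 CPM in sufficient 1, 2 and 3 and at 23.1, 22.8 and 21.8 CPM in deficient 1, 2 and 3. Its libraries followed another order than those of Ikzf5, since sufficient 3 was low for Pstk and the highest for Ikzf5. Pstk did not pass by label (log2 fold change 0.24 ± 0.10, edgeR adjusted p = 0.632) or by level (0.14 ± 0.11, adjusted p = 0.483).

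On its other side Ikzf5 starts head to head with Acadsb, which encodes an acyl-CoA dehydrogenase of the mitochondria. The 79 bases between the start of Ikzf5 in GENCODE M21 (131410521) and that of Acadsb (131410601) are shown because they lie upstream of both genes. RefSeq places the Ikzf5 start at 131410478, inside the GENCODE gene, and 122 bases lie between the RefSeq starts of both genes. The stretch lies at chr7:131410522-131410600 (GRCm38.p6, minus strand, the strand of Ikzf5, letters from RefSeq), with CG dinucleotides in capitals.
Ikzf5 to Acadsb: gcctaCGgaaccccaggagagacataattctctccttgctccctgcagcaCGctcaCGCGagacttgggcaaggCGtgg
The stretch is 60.8% G and C and holds 5 CG dinucleotides, and at least as many stand in the same window, 44 to 122 bases before the RefSeq start, of 29.9% of the 32851 promoters in the reference table. GGGAA, the core that Ikaros itself binds, was searched on both strands and is not in this stretch, while it is in the same window of 22.5% of promoters. In the 250 bases before the RefSeq start it occurs 1 time at Ikzf5 and 1 time at Acadsb, and 56.2% of promoters hold it there. Ikzf1 has 2 starts in the table, with 0 and 2 matches, and the other members have no entry.

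Acadsb, also named after its values were seen, stood at 24.5, 26.8 and 35.4 CPM in sufficient 1, 2 and 3 and at 33.2, 32.7 and 29.0 CPM in deficient 1, 2 and 3. Sufficient 3 was highest in both genes, and sufficient 1 and 2 were lowest in both. Unlike Ikzf5, Acadsb placed deficient 3 nearer the high-Trim28 libraries. Its groups by level did not overlap, as in 26.4% of all genes. Acadsb rose from high to low Trim28 by 0.34 ± 0.08 (log2, edgeR adjusted p = 0.0218), a value equal to that of Ikzf5 to 2 decimals. By label it was 0.13 ± 0.14 (adjusted p = 0.811).

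**Figure D2:**
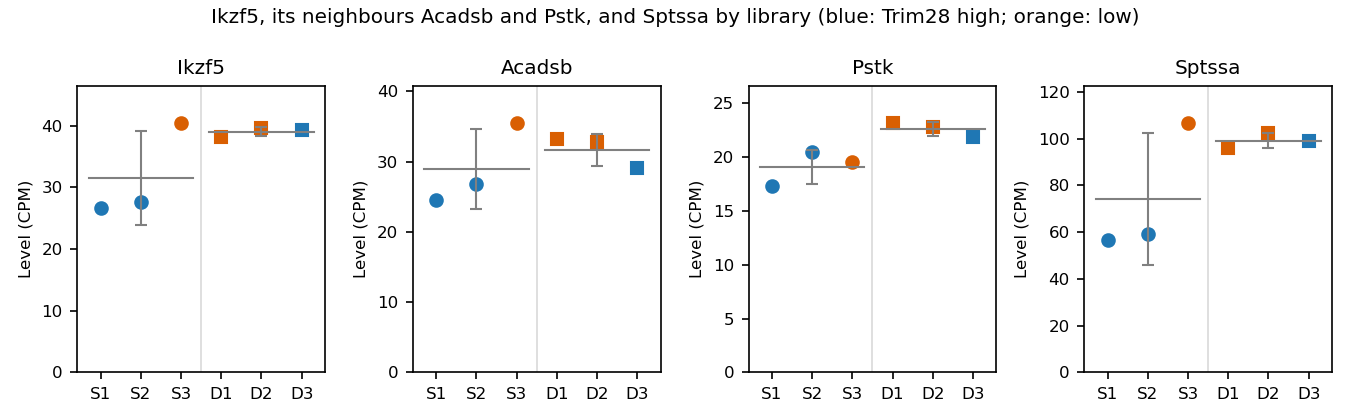
Levels in CPM (linear axes from 0) of Ikzf5, of its neighbours Acadsb and Pstk and of Sptssa, the gene with the most similar pattern. Circles are libraries labelled sufficient, squares those labelled deficient, and grey lines the mean and SD per label. In Ikzf5 and Sptssa only S1 and S2 are low, while Pstk is higher in all 3 libraries labelled deficient, at 21.8 to 23.1 CPM. The labelled groups do not overlap in 12.8% of all genes.

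Over the family as a whole, 0 of 5 members passed the edgeR test by label, where 0.0165% of the 12158 genes tested did, and 0 of 5 by Trim28 level, where 8.23% did. At an unadjusted p under 0.05 there was 1 of 5 in each split, Ikzf2 by label and Ikzf5 by level, beside 7.76% and 22.3% of all genes, so that the share by level is near the background. DESeq2 and limma-voom also called 0 of 5 in each. In the 4 libraries 2 of 5 passed, both higher in the deficient pair, where 17.4% of 12183 genes did. The median log2 fold change of the 5 members was 0.08 by label and 0.06 by level, beside medians of -0.00 and 0.00 over all genes. Summed, the members held 2172 to 2300 CPM in the libraries labelled sufficient and 2367 to 2450 CPM in those labelled deficient, groups that do not overlap. Ikzf2 made up 38.4 to 46.3% of the family counts, and its own labelled groups do not overlap, as in 12.8% of all genes. Ikzf3 and Ikzf4 had negative log2 fold changes by label, so the sum does not describe every member. By Trim28 level the sums overlapped, at 2172 to 2450 CPM with high and 2300 to 2408 CPM with low Trim28.

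**Figure D3:**
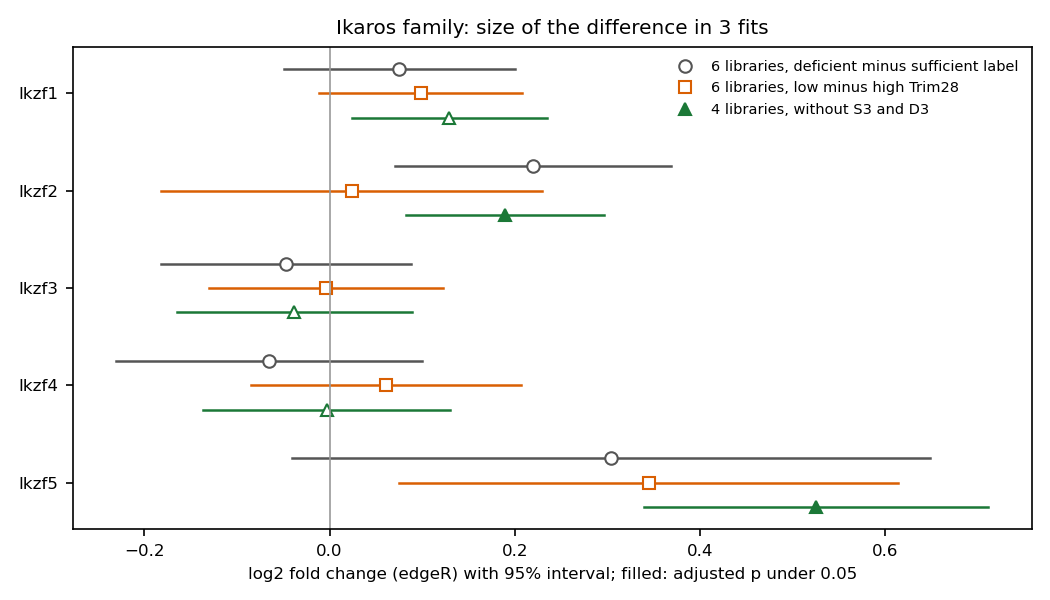
Size of the difference for each Ikaros family member, as the edgeR log2 fold change (linear axis in log2 units) with its 95% interval. Circles compare the labels, squares low with high Trim28, and triangles the 4 libraries left without S3 and D3. Filled symbols passed at an adjusted p under 0.05. Only Ikzf2 (0.19) and Ikzf5 (0.53) in the 4 libraries are filled, and Ikzf3 lies close to 0 in all 3 fits.

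Ikaros proteins act as pairs, so the balance between members was also compared, as count ratios to Ikzf1 within each library. The ratio of Helios to Ikaros was 1.49, 1.48 and 1.54 in sufficient 1, 2 and 3 and 1.56, 1.53 and 1.90 in deficient 1, 2 and 3. Deficient 3 stood apart and the other 5 libraries lay within 1.48 to 1.56. By label the log2 ratio differed by 0.14 (exact permutation p = 0.2, two-sided, adjusted over the 4 ratios p = 0.267), and without deficient 3 by 0.04. With 3 libraries against 3 the smallest possible p is 0.1.

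The ratios of Eos and Aiolos to Ikaros were lower in every library labelled deficient than in any labelled sufficient. How often ratios of other genes do so was not computed. Both ratios share Ikzf1, and Ikzf3 and Ikzf4 had like patterns (Pearson's r = 0.83), so they are not independent. Eos to Ikaros was 0.606, 0.530 and 0.554 in sufficient 1, 2 and 3 and 0.511, 0.525 and 0.495 in deficient 1, 2 and 3. Aiolos to Ikaros was 0.730, 0.655 and 0.660 in the former and 0.627, 0.607 and 0.647 in the latter. The log2 differences were -0.14 and -0.12, each with an exact permutation p of 0.1, the smallest possible, and 0.2 after adjustment, so neither passed. By Trim28 level the same ratios overlapped between groups, with log2 differences of -0.03 (exact p = 0.8) and -0.10 (exact p = 0.3). The ratio of Pegasus to Ikaros overlapped under both splits (log2 differences 0.26 and 0.27, exact p = 0.4 and 0.3).

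The genes whose pattern over the 6 libraries was most like each member were found by Pearson's r of log2 CPM among 9992 genes. This is a description over 6 libraries that share depth and grouping, with no test. Nearest to Ikzf5 were Sptssa (r = 0.999), a subunit of serine palmitoyltransferase, Actr3 (0.998), an actin nucleation factor, and Pum2 (0.998), an RNA-binding protein. Sptssa stood at 56.6 and 59.3 CPM in sufficient 1 and 2 and at 96.1 to 107 CPM in the other 4 libraries, so that it repeats the pattern of Ikzf5 at a larger amplitude. Nearest to Ikzf2 were Ypel5 (0.983), Cpt1a (0.982), which carries fatty acids into mitochondria, and Clk1 (0.978), a splicing kinase. Each was highest in deficient 3, as Ikzf2 was: Cpt1a stood at 209 CPM there and at 164 to 184 CPM elsewhere.

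For the steadier members the nearest genes were She (0.993), Zfp709 (0.989) and Emilin1 (0.988) for Ikzf1, Ager (0.995), Itpr3 (0.986) and Terf2 (0.985) for Ikzf3, and Supt5 (0.978), Slc25a33 (0.977) and Agpat1 (0.976) for Ikzf4. She, an adaptor protein gene, and Emilin1, an extracellular matrix gene, passed by Trim28 level at log2 fold changes of 0.35 and 0.52 (edgeR adjusted p = 0.0284 and 0.0212), whereas Ikzf1 and Zfp709 did not (Zfp709 0.25, adjusted p = 0.272). Of the 15 nearest genes, 6 were also among the nearest 3 by Spearman's rank when tied genes share the best rank. All 6 had a rho of 1, which many genes can reach over 6 libraries. For Ikzf1 the next rho, 0.943, ranked 68th, so rank does not single these genes out. Between members, r was 0.83 for Ikzf3 and Ikzf4, 0.72 for Ikzf2 and Ikzf5 and -0.58 for Ikzf2 and Ikzf4.

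For the other members, the neighbours are the nearest genes that were tested, so untested genes can lie between. The gaps ran from 4096 bases (Rps26) to 2492342 bases (Lancl1), with 139725 for Spag16 and 105543 for Gm11998. Of these 8 genes, all named after their values were seen, 4 passed by Trim28 level, where 8.23% of all genes did. The members themselves did not pass. Fignl1 next to Ikzf1 fell from high to low Trim28 by 0.45 in log2 terms (adjusted p = 0.0456, edgeR), and Rps26, a ribosomal protein gene next to Ikzf4, fell by 0.42 (adjusted p = 0.0471). Spag16 next to Ikzf2 rose by 1.23 (adjusted p = 0.00751) and Grb7 next to Ikzf3 by 0.82 (adjusted p = 0.0260), both from a few CPM. Gm11998, Lancl1, Zpbp2 and Suox, on the other sides, did not pass, and none of the 10 neighbours passed by label.

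No gene of the co-repressor complexes that Ikaros proteins recruit passed in all 6 libraries. Of 14 NuRD subunits tested, 0 passed by label and 0 by Trim28 level (edgeR; 1 and 4 at an unadjusted p under 0.05, as were 7.76% and 22.3% of all genes), and of 3 Sin3 and CtBP genes tested, 0 passed in either (0 at an unadjusted p under 0.05), as with DESeq2 and limma-voom. The NuRD median by level was -0.01. Nearest to the threshold were Mta3, a scaffold subunit, at -0.19 ± 0.06 (adjusted p = 0.0592), and Gatad2b, which joins parts of the complex, at -0.17 ± 0.06 (adjusted p = 0.109). Ctbp1 and Sin3a had log2 fold changes of -0.06 each (adjusted p = 0.531 and 0.555), and Ctbp2 was too low to be tested. In the 4 libraries 1 of the 14 NuRD subunits rose, Rbbp4, and 2 fell, where 17.4% of all genes passed. The 2 that fell were Mta3 and Gatad2b, by 0.21 and by 0.22 (edgeR adjusted p = 0.0463 and 0.0422).

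The histone-binding subunit Rbbp4, named after its values were seen, was lowest in sufficient 1 and 2, as Ikzf2 and Ikzf5 were. It stood at 204, 205 and 238 CPM in sufficient 1, 2 and 3 and at 250, 255 and 253 CPM in deficient 1, 2 and 3. All 3 libraries labelled deficient were above all labelled sufficient, with sufficient 3 between. The labelled groups do not overlap in 12.8% of all genes. Rbbp4 rose by 0.31 ± 0.05 in the 4 libraries (log2, edgeR adjusted p = 0.000578) but passed neither by label (0.23 ± 0.07, adjusted p = 0.632) nor by level (0.18 ± 0.08, adjusted p = 0.178).

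Ikaros proteins are controlled after translation by casein kinase 2, which phosphorylates them. The CRL4-cereblon ubiquitin ligase acts on Ikaros and Aiolos in human cells treated with lenalidomide-type drugs, and whether it acts on them in these cells was not tested. Of the 8 genes of these enzymes, 0 passed by label and 0 by Trim28 level (edgeR, DESeq2 and limma-voom). At an unadjusted p under 0.05 there were 1 and 3 of 8, beside 7.76% and 22.3% of all genes. Csnk2b, the regulatory subunit of casein kinase 2, had a log2 fold change by level of -0.17 ± 0.06 (adjusted p = 0.0780), and Rbx1, the RING subunit of the ligase, of 0.26 ± 0.08 (adjusted p = 0.0800). In the 4 libraries 1 of the 8 genes rose and 1 fell, where 17.4% of all genes passed. Csnk2b fell there by 0.21 (edgeR adjusted p = 0.0226) and Rbx1 rose by 0.31 (adjusted p = 0.0356). Crbn, encoding cereblon itself, differed by -0.01 by level (adjusted p = 0.932).

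**Figure D4:**
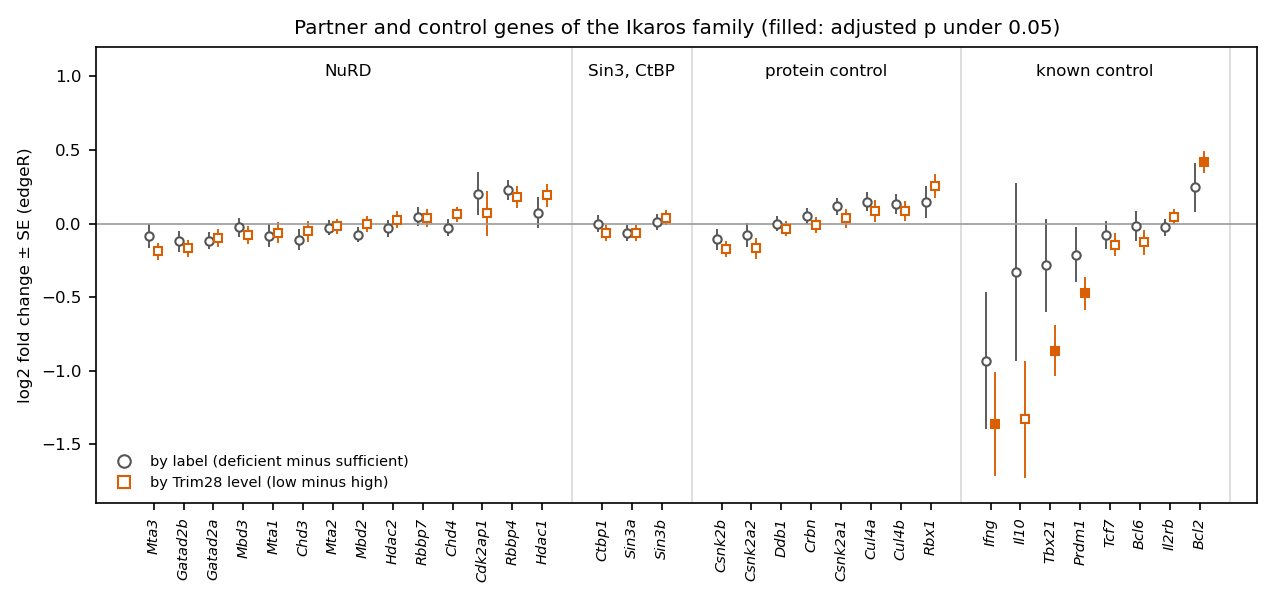
Genes of partners and enzymes of Ikaros proteins, and genes described in lymphocytes as controlled by the family, in 4 lists separated by grey lines. The vertical axis is the edgeR log2 fold change with its SE. Circles compare the labels and squares low with high Trim28, and filled symbols passed at an adjusted p under 0.05. No symbol of the 3 partner lists is filled, while by Trim28 level Bcl2 is filled at 0.42 and Prdm1, Tbx21 and Ifng are filled at -0.47, -0.86 and -1.36.

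Among genes described in lymphocytes as controlled by Ikaros family members, in either direction, 4 changed by Trim28 level. This list was drawn up with earlier results of these libraries known, so neither its count nor its direction is independent evidence. Of 12 genes, 8 were expressed enough to be tested, and by Trim28 level 1 rose and 3 fell (edgeR, 8.23% of all genes passed). By label 0 of 8 passed, and 0 were under an unadjusted p of 0.05. The median of the 8 by level was -0.31, and Il2, Il4, Il17a and Csf2 were too low to be tested. Only genes that passed the filter on low counts are in these figures.

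Bcl2, the anti-apoptotic gene, was the member of this list that rose. It stood at 560 and 569 CPM in sufficient 1 and 2 and 825 in sufficient 3, and at 830, 782 and 708 CPM in deficient 1, 2 and 3. Deficient 3 lay between the remaining high-Trim28 libraries and the low ones. The log2 fold change by level was 0.42 ± 0.08 (edgeR adjusted p = 0.00442), and by label 0.25 ± 0.17 (adjusted p = 0.702).

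By level 6 of the 8 tested genes of this list had negative log2 fold changes, and 3 of them passed. Tbx21, encoding T-bet, stood at 6.73, 6.38 and 3.98 CPM in sufficient 1, 2 and 3 and at 3.37, 3.62 and 7.00 CPM in deficient 1, 2 and 3, a log2 fold change by level of -0.86 ± 0.17 (edgeR adjusted p = 0.00538). Prdm1, encoding Blimp-1, fell by 0.47 (adjusted p = 0.0190) and Ifng, the interferon gamma gene, by 1.36 (adjusted p = 0.0282). The libraries followed Trim28 rather than the label in all 3 genes, although Ifng was at 2.87 CPM or less in every library. Groups by level do not overlap in 26.4% of all genes.

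Some marker genes of other cell types differed by the same split and are given beside these genes. The 5 NK cell markers summed to 4.81 to 7.32 CPM in high-Trim28 and 10.1 to 12.0 CPM in low-Trim28 libraries, through Klrb1c, which rose by 1.97 (log2, edgeR adjusted p = 4.08e-06). Eomes, the other NK marker tested, had the opposite sign (-1.07 ± 0.33, adjusted p = 0.0593), with 2.06 to 4.26 CPM in high-Trim28 and 1.09 to 1.81 CPM in low-Trim28 libraries. Gzma stood at 0.182 to 0.297 CPM in the former and 0.0971 to 0.10 CPM in the latter, no library above 3 counts, and Ncr1 and Klra8 were at 0 in every library. Of 4 B cell markers tested, Igkc fell by 2.24 (adjusted p = 0.00747) and Cd22 by 0.88 (adjusted p = 0.0283). Among the rest, Zbtb46 of the dendritic cell list rose by 1.25 (adjusted p = 0.0366), whereas Cd8b1, Xbp1 and Itgam did not pass (adjusted p = 0.515, 0.250 and 0.334). The CD8 T cell markers summed to 10.2 to 14.8, the plasma cell markers to 91.8 to 109, the myeloid markers to 1.94 to 3.27, the dendritic cell markers to 1.28 to 4.37 and the erythroid markers to 0 to 0.182 CPM over all libraries. Tnfrsf17, Cd14, Itgax, Siglech and Alas2 were at 0 throughout. Whether other cell types have a part in the differences was not tested. In sorted bulk samples, fewer cells of a type and less RNA per cell cannot be told apart.

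Of 10 Treg signature genes, 1 passed by Trim28 level and 0 by label (edgeR), a share near the 8.23% of all genes that passed by level. At an unadjusted p under 0.05 there were 4 by level and 3 by label, beside 22.3% and 7.76% of all genes. Tigit, an inhibitory receptor gene, fell by 0.36 (adjusted p = 0.00482). Foxp3, with which Eos works, stood at 747, 697 and 621 CPM in sufficient 1, 2 and 3 and at 614, 596 and 612 CPM in deficient 1, 2 and 3. Sufficient 1 and 2 were highest and the other 4 lay together, the division that Ikzf5 shows in the opposite direction. Foxp3 had a log2 fold change of -0.18 ± 0.07 by label (adjusted p = 0.632) and -0.16 ± 0.07 by level (adjusted p = 0.193), and fell by 0.25 ± 0.05 in the 4 libraries (adjusted p = 0.00509). Among T cell identity genes, Trac, the T cell receptor alpha constant gene, fell by 0.32 by level (adjusted p = 0.0135), the only 1 of 6 that passed.

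The authors' deposited table of their own comparison gives the members no call, and its positive values mean higher in sufficient cells. In the authors' deposited table the log2 fold changes were -0.09 for Ikzf1 (adjusted p = 0.401), -0.02 for Ikzf2 (0.944), 0.00 for Ikzf3 (0.990), -0.02 for Ikzf4 (0.951) and -0.18 for Ikzf5 (0.235), and Trim28 stood at 3.11. With the sign reversed, the values of the authors' deposited table lay a median of 0.03 from the split by Trim28 level and of 0.08 from the split by label, over 10356 genes. For Ikzf2 the distances were 0.00 and 0.20, whereas for Ikzf5 they were 0.16 and 0.12, nearer to the labels. Its mean level was 1.77 times the mean count for Ikzf5 and 0.646 times for Ikzf4, against 0.959 to 0.997 times for Ikzf1, Ikzf2, Ikzf3 and Trim28. Over 9079 genes this ratio had a median of 0.984 and a range from the 5th to the 95th percentile of 0.703 to 1.80.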

How the data were processed

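RNA of 6 libraries was compared, 3 per label. Groups and replicate numbers came from the sample titles. The deposited count table holds raw counts per Ensembl gene, without normalization. TopHat2 2.1.1, HTSeq 0.7.2, DESeq2 and mm10 are listed per the submitters' processing notes, with no role given, and no source used here gives the strand setting. Per the file headers, the authors also deposited their own comparison: a mean level (a normalised signal), a log2 fold change with its error, the score of their test, a p-value, an adjusted p and a q-value. CPM was the count scaled by the library total. Positions and lengths were taken from GENCODE M21 (mm10) and promoters from RefSeq (GRCm38.p6).

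Counts were tested with edgeR 4.0.16 (quasi-likelihood, robust dispersion, TMM factors, filterByExpr) in R 4.3.3, with Benjamini-Hochberg adjustment over all genes tested at 0.05. Standard errors came from fold changes and F values. Ratios were tested by exact permutation. DESeq2 1.42.0 and limma-voom (limma 3.58.1), other scalings and filters, a replicate block and leaving out libraries were alternatives. Python 3.11.15, pandas 2.3.3, numpy 2.4.6, scipy 1.17.1 and matplotlib 3.10.9 were used, and the fits were tested on simulated data. Intervals and floors cover counting error or the spread between libraries only. No pair of libraries agreed within sampling noise (smallest chi-square per degree of freedom 2.52, between sufficient 3 and deficient 1). Sufficient 3 stood at 12.2 and 14.3 from sufficient 1 and 2, and deficient 3 at 7.66 to 9.19 from every other library.

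The members and gene lists (14 lists, 96 entries) were chosen with earlier results of these data known. The text names Trim28, Foxp3, the members, up to 4 called genes per list with the smallest adjusted p by Trim28 level (or 2 where none was called), and per member the 3 genes with the highest Pearson r with mean log2 CPM no lower than 1; others are marked as named after their values were seen. The level per length by other gene models was added after seeing the data. Some marker genes of the lists are not reported here.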

Additional observations from a re-analysis of the deposited data

How the results depend on the processing

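Of 160 log2 fold changes of members under alternatives, 142 kept their direction and their side of the threshold, 10 gained a call, 0 lost one and 8 changed sign without a call. The fit without both doubted libraries is the same in both splits, so its values, and its calls of Ikzf2 and Ikzf5, are counted under each. By label, genes called moved from 2 to 6 (DESeq2), 1 (limma-voom), 1 (non-robust fit), 0 (replicate block) and 2114 (without both doubted libraries), and ran from 1 to 807 when single libraries were left out. Without both, Ikzf2 was 0.19 and Ikzf5 0.53. Leaving out single libraries, Ikzf2 by label ran from 0.16 to 0.27, Ikzf3 from -0.0851 to 0.0012 and Ikzf5 from 0.20 to 0.52. By Trim28 level, genes called moved from 1000 to 1676 (no filter) and 2114 (without both), and ran from 556 (without deficient 1) to 2737 (without deficient 3). Ikzf2 by level was -0.0014 with upper-quartile factors and 0.19 without both, and ran from -0.0437 to 0.16. Ikzf3 ran from -0.0337 to 0.0554, Ikzf4 was -0.0030 without both, and Ikzf5 was 0.34 without a filter (adjusted p = 0.00336) and 0.53 without both, and ran from 0.25 to 0.54. Of the co-repressor and protein control genes, 0 were called in either split; by level 2 were called with upper-quartile factors, 1 with library totals, 2 without a filter, 5 without both and 0 to 7 when single libraries were left out, and by label 5 without both and 0 to 1. By level the Helios to Ikaros ratio ran from -0.13 to 0.0571 and the Eos to Ikaros ratio from -0.10 to 0.0485. Where leaving out a library adds calls, the cause was not tested.

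Deviations from the label means correlated at r = -0.36, -0.29 and -0.61 between same-numbered libraries. Between sufficient 3 and deficient 1 r was 0.49, and between sufficient 1 and deficient 3 it was 0.45. This check cannot decide whether the numbers pair the libraries, because those in which Trim28 goes against the label share a replicate number. With the replicate block Ikzf5 by Trim28 level was 0.36 (edgeR adjusted p = 0.0445), and no other member gained or lost a call. Counting error limits Ikzf5 most, at 4.81 to 6.10% per library.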
